A study of Mus musculus with 26 samples.

Results

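The 10 genes described here encode components of 3 heterochromatin silencing systems that read or extend methylation of histone H3 lysine 9 (H3K9). They are the corepressor gene Trim28 and the KRAB zinc finger gene Zfp809, the HUSH complex genes Mphosph8, Fam208a and Pphln1, the HUSH-associated genes Morc2a and Atf7ip, and the HP1 genes Cbx1, Cbx3 and Cbx5. They were chosen by gene symbol, as 10 of the 24412 genes listed in each of 3 deposited tables, and all 10 were found in every table. RNA was measured by polyA RNA-seq in 26 libraries of C57BL/6J mouse oocytes or embryos, in 13 groups of 2. Females carrying Zp3-Cre, which is active in growing oocytes, and floxed alleles of Kdm3a and Kdm3b (Zp3-Cre, Kdm3a f/f, Kdm3b f/f) gave oocytes without both H3K9 demethylases, and fertilisation in vitro with wild-type sperm gave maternal double-knockout (mDKO) embryos, so the paternal alleles in those embryos are intact. The label of the other oocytes and embryos of that experiment is control, and the alleles that they carry are not given. Control and mDKO samples without injection were MII oocytes and embryos at the early (E2C) and late (L2C) 2-cell stage. The titles of the L2C knockout libraries say Kdm3ab-DKO and their genotype label says maternal knockout, and the genotype label was followed in calling them mDKO. Injected E2C embryos were control with mCherry, mDKO with mCherry, mDKO with Kdm3aWT and mDKO with Kdm3aHA. Injected 4-cell embryos (4C) were wild-type with mCherry, Kdm3aWT or Kdm3aHA. The labels give neither the meaning of HA nor the age of the females. Each library was a pool of 12 to 20 embryos (20 at L2C), and separate matings are not stated for the 2 pools of a group, so p-values measure the spread between these pools, which may be technical.

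TRIM28 (KAP1) is brought to DNA by KRAB zinc finger proteins, which bind chosen sequences, many of them in endogenous retroviruses, and TRIM28 in turn recruits the H3K9 methyltransferase SETDB1. The HUSH complex binds chromatin through the chromodomain of MPP8 (the Mphosph8 product) and silences young retrotransposons and intronless genes, with help from the ATPase MORC2A and from SETDB1, which ATF7IP stabilises. HP1 proteins bind methylated H3K9 through their chromodomain and link neighbouring nucleosomes and further silencing factors. In mouse embryos, maternal TRIM28 is known for protecting imprinted methylation after fertilisation.

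By RefSeq annotation of GRCm38.p6, the assembly behind the mm10 build of the tables, Trim28 lies on chromosome 7 from 13024152 to 13031032, Zfp809 on chromosome 9 from 22225667 to 22254117 and Mphosph8 on chromosome 14 from 56668235 to 56697430, all on the plus strand. These 3 were the members called between mDKO and control at E2C. For that reason the 250 bases before a transcript start listed for each are shown, on the plus strand of GRCm38.p6 from RefSeq, with capitals at every match to a CCAAT box (CCAAT) or a GC box (GGGCGG) on either strand. On the opposite strand these read ATTGG and CCGCCC. Zfp809 has 2 starts in the table, and the window before 1 of them is shown. The listed starts of Zfp809 and Mphosph8 lie downstream of the outermost start that sets the gene's span, so the last bases of both windows fall inside the spans given above.
Trim28, chr7:13023902-13024151: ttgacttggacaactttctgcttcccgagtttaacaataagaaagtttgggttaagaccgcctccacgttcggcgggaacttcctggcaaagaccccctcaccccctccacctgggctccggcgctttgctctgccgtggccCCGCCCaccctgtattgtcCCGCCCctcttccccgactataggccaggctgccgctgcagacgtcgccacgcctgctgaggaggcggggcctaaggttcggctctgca
Zfp809, chr9:22225453-22225702: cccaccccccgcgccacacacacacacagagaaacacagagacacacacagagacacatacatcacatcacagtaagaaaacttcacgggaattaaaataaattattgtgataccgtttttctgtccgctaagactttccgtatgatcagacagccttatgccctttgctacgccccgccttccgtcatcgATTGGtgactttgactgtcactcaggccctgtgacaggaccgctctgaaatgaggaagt
Mphosph8, chr14:56667998-56668247: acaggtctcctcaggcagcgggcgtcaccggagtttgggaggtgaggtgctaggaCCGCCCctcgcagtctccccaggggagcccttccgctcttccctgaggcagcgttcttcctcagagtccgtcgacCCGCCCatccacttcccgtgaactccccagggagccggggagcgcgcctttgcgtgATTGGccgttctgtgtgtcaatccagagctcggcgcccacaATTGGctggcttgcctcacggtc

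The Trim28 window held 2 GC boxes and 0 CCAAT boxes, the Zfp809 window 1 CCAAT box and 0 GC boxes, and the Mphosph8 window 2 of each. Among all 32536 RefSeq windows of 250 bases, 33.8% held a CCAAT box and 33% a GC box, so neither match is rare. GC content was 62.0% for Trim28, 48.4% for Zfp809 and 65.6% for Mphosph8, against a median of 52.4% over all windows. The windows held 17, 11 and 19 CpG in that order, against a median of 6. A further 7 motifs were searched on both strands and had no match in the 3 windows shown. They were the ETS core CCGGAAG and the NRF1 motif. The binding motif of NR5A2 was searched as AAGGTCA. For the OBOX factors the letters were TAATCC. The YY1 motif was searched by the letters AANATGGC. The TATA box was read as TATAAA. The E-box was read as CACGTG. A match is a run of letters and was not tested as a binding site.

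The values are TPM, which are normalised for transcript length and share out a fixed total per library, so read depth is unknown and levels may be compared between genes. The number of genes at or above 1 TPM ran from 7649 to 12396 per library, and Pearson r across genes between replicates of a group ran from 0.968 to 0.995, lowest for 4C embryos with mCherry. In MII oocytes the targeted genes followed the labels: Kdm3a was 8.08 and 8.83 TPM in control against 0.725 and 0.718 TPM in mDKO MII oocytes, and Kdm3b was 26.6 and 24.97 against 1.75 and 1.87 TPM. At E2C Kdm3a was 2.59 and 2.07 against 0.642 and 0.557 TPM, and Kdm3b 1.047 and 0.400 against 0.129 and 0.289 TPM. At L2C, the stage without injection at which most members were called between genotypes, Kdm3a RNA was present in both genotypes, with 34.1 and 43.8 TPM in control against 28.4 and 26.3 in mDKO embryos, and Kdm3b was 3.06 and 3.70 against 0.651 and 1.79 TPM. In injected mDKO embryos Kdm3a was 0.262 and 0.411 TPM (mCherry), 4122 and 2315 (Kdm3aWT) and 4043 and 3907 (Kdm3aHA), none of which tells whether protein was made. Marker levels for other sources of RNA also moved with genotype and are given beside the results. Fewer transcripts per cell and fewer cells of a kind cannot be told apart in pools. Overlapping genes on the opposite strand make several members uncertain, since the strand setting of the counting is not given. They are Trim28 with Zbtb45, Mphosph8 with Gm16973, Fam208a with Ccdc66, Morc2a with Tug1, Atf7ip with Gm44140 and Cbx1 with the pseudogene Gm11517. Zfp809 also overlaps an annotated transcript on its own strand, Gm48478. Cbx3 is uncertain as well, because GENCODE M21 names 8 Cbx3 pseudogenes and the tables list 0 of them. Fam208a is listed as Tasor in RefSeq.

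In control oocytes and embryos, the leading silencer transcript changed at every stage. In MII oocytes Trim28 led with 613 and 603 TPM (608 ± 7.14, mean ± SD, n = 2). Cbx1 followed at 55.3 and 58.7 TPM, Atf7ip at 49.6 and 44.3, Mphosph8 at 19.4 and 21.7, and Pphln1 at 13.7 and 10.02. The ranges of these 5 did not overlap. Zfp809, Fam208a, Cbx3, Morc2a and Cbx5 lay between 1.23 and 5.33 TPM, and most neighbours among them overlapped. At E2C, Mphosph8 led with 215 and 164 TPM, ahead of Cbx1 with 135 and 127 TPM. Pphln1, Zfp809, Atf7ip, Cbx3 and Cbx5 followed between 14.2 and 41.1 TPM, Trim28 stood at 5.76 and 4.87, and Morc2a and Fam208a, which overlapped, at 2.67 to 3.05. At L2C, Cbx3 led with 194 and 206 TPM and Pphln1 followed with 107 and 117. Zfp809, Mphosph8 and Cbx1 lay close together between 79.3 and 90.8 TPM, with Zfp809 overlapping Mphosph8 and Mphosph8 overlapping Cbx1, while Trim28 stood at 54.6 and 58.98 TPM.

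**Figure D1:**
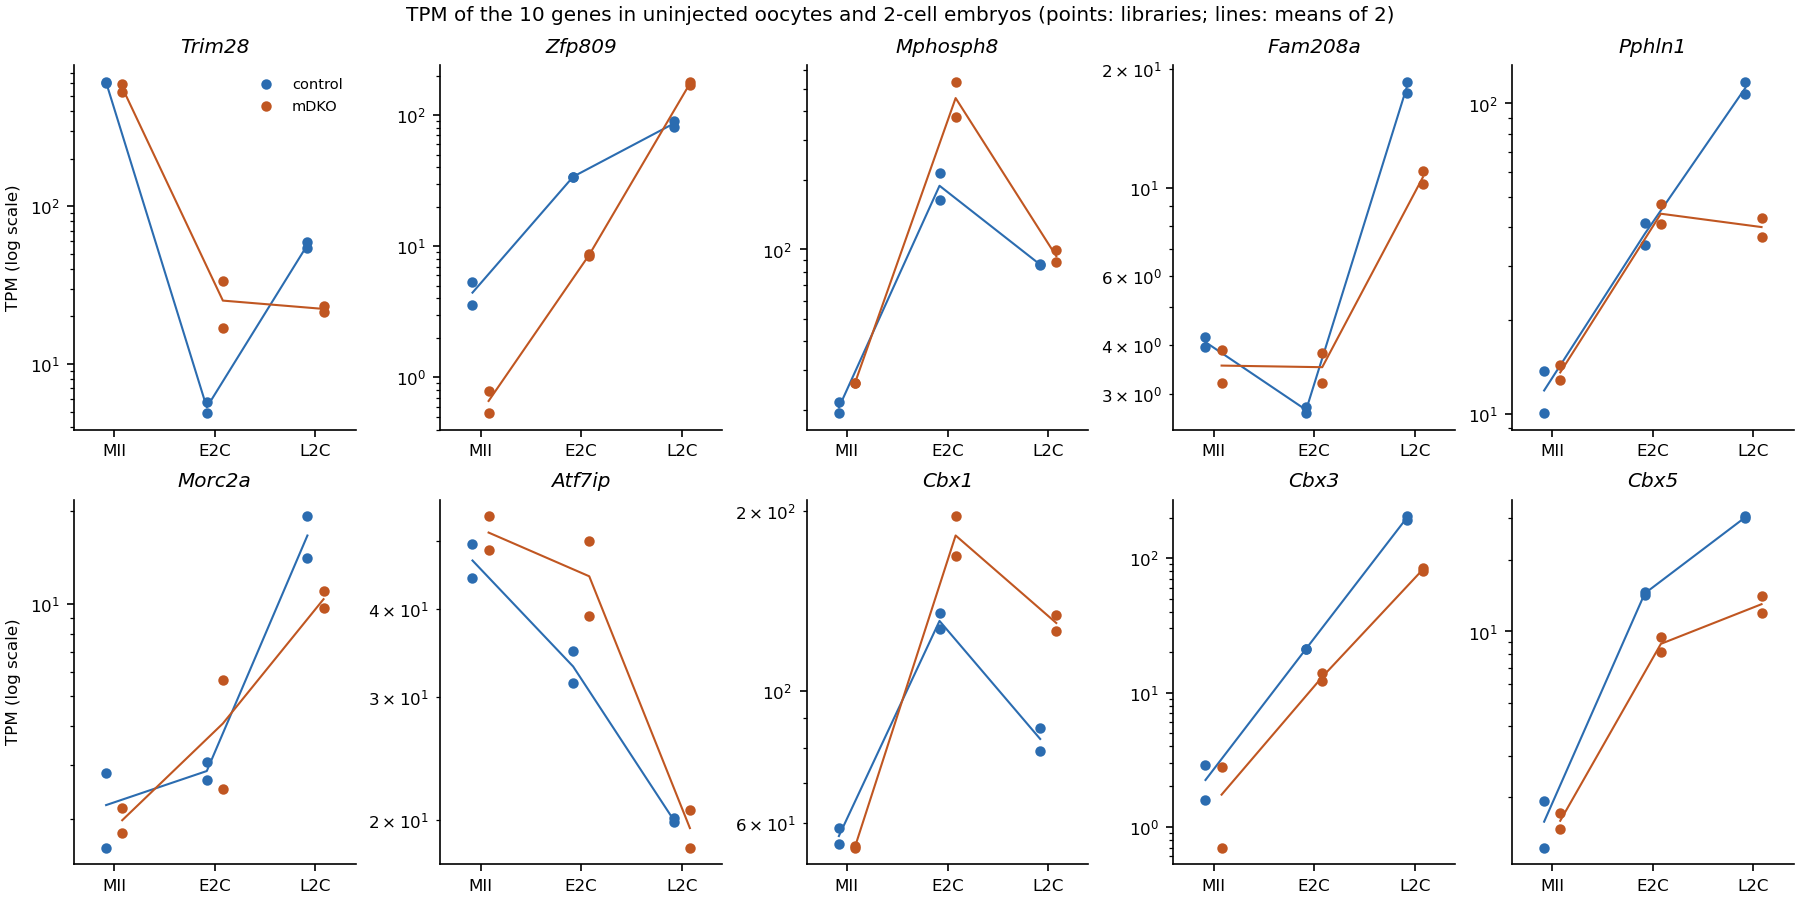
TPM of each of the 10 members in control and mDKO MII oocytes, early 2-cell and late 2-cell embryos without injection (log axis, scaled for each gene), 1 point per library, with lines joining the means of 2 libraries. Trim28 drops from about 608 TPM in control MII oocytes to 5.32 at early 2-cell, while Cbx3 climbs from 2.23 to 200.2 TPM at late 2-cell.

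Differences were tested with limma on log2(TPM + 1), with Benjamini-Hochberg adjustment over all genes tested. A gene is called at an adjusted p under 0.05, and a log2 fold change is given ± its standard error on that scale, which understates changes of low genes. From MII to E2C in controls, 9 of 10 members were called, 6 higher and 3 lower, where 72.1% of all genes were called (35.1% higher, 37.0% lower). Trim28 fell by 6.59 ± 0.24 on the log2 scale (limma adjusted p = 1.67e-09). Mphosph8 rose by 3.13 ± 0.18 (limma adjusted p = 3.89e-08), Cbx3 by 2.81 ± 0.31, Zfp809 by 2.70 ± 0.18, Cbx5 by 2.60 ± 0.19, Pphln1 by 1.61 ± 0.18 and Cbx1 by 1.19 ± 0.12. Fam208a (-0.44 ± 0.18, limma adjusted p = 0.0437) and Atf7ip (-0.49 ± 0.16, limma adjusted p = 0.0164) were called lower, but neither was called after size-factor scaling, which moved the median of all genes by 0.173, with log2 fold changes of -0.17 (limma adjusted p = 0.384) and -0.15 (limma adjusted p = 0.356). Fam208a was also not called without any 1 of the MII, L2C or control E2C libraries (limma adjusted p from 0.0503 to 0.146), and Atf7ip not without E2C control replicate 2 (0.0945) or MII control replicate 1 (0.0960). MII libraries were made with the TruSeq Stranded mRNA kit and E2C libraries with a SMART-Seq kit, so stage and kit cannot be told apart in these changes. From E2C to L2C all 10 members were called, 7 higher and 3 lower, where 65.6% of all genes were called (35.5% higher, 30.1% lower). Trim28 rose by 3.20 ± 0.24, Cbx3 by 3.18 ± 0.31, Fam208a by 2.35 ± 0.18, Morc2a by 2.18 ± 0.31, Pphln1 by 1.54 ± 0.18, Zfp809 by 1.32 ± 0.18 and Cbx5 by 1.02 ± 0.19 on the log2 scale. Mphosph8 fell by 1.12 ± 0.18, Atf7ip by 0.70 ± 0.16 and Cbx1 by 0.65 ± 0.12. The kit of the L2C libraries is not given, so stage and library kit cannot be told apart here either.

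Between mDKO and control embryos, Trim28 and Zfp809 changed in opposite directions at E2C, and each change had the opposite sign at L2C. Trim28, the shared corepressor of KRAB zinc finger proteins, stood at 532 and 596 TPM in mDKO MII oocytes, below the 613 and 603 TPM of controls without overlap, and this difference was not called (log2 fold change -0.11 ± 0.08, limma adjusted p = 0.454). At E2C it was 5.76 and 4.87 TPM in control against 33.5 and 16.9 in mDKO embryos. Both mDKO pools were above both controls, although they differed from each other by more than the controls did. Trim28 rose by 1.98 ± 0.32 on the log2 scale (limma adjusted p = 0.00571), and was not called without E2C control replicate 2 (1.88, limma adjusted p = 0.0529) or with no filter on low TPM (0.0604). At L2C the order turned, with 54.6 and 58.98 TPM in control against 23.3 and 21.4 in mDKO embryos. Trim28 fell by 1.31 ± 0.14 there (limma adjusted p = 6.79e-04), so the control mean went from 5.32 ± 0.630 at E2C to 56.8 ± 3.11 TPM at L2C and the mDKO mean from 25.2 ± 11.8 to 22.3 ± 1.38 (SD, n = 2).

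Zfp809, a KRAB zinc finger protein known for repressing murine leukaemia virus-like retroviruses through their primer binding site, was 3.54 and 5.33 TPM in control against 0.533 and 0.791 TPM in mDKO MII oocytes. The groups did not overlap and Zfp809 fell by 1.69 ± 0.27 on the log2 scale (limma adjusted p = 0.0364). Both mDKO pools were below the 1 TPM that the filter asks of 2 libraries. The gene was thus tested only through the 2 control pools, and its call cannot be read apart from that filter. It was the only one of the 10 members called in oocytes, where 4.25% of all genes were called and 3.41% were called lower. These were 91 genes higher and 367 lower, and 110 and 256 after size-factor scaling. The call was lost without mDKO replicate 1 (-1.58, limma adjusted p = 0.200) or mDKO replicate 2 (-1.81, 0.112), and without either control replicate the gene did not pass the filter on low TPM. It was not called either with no filter on low TPM (limma adjusted p = 0.0882) or with no mean-dependent trend in the variance (0.0575). At E2C, Zfp809 was 33.8 and 33.97 TPM in control against 8.74 and 8.47 in mDKO embryos. It fell by 1.86 ± 0.19 (limma adjusted p = 8.34e-04). At L2C it was 90.8 and 81.5 TPM in control against 179 and 168 in mDKO embryos, and rose by 1.005 ± 0.12 (limma adjusted p = 9.37e-04). Between E2C and L2C the mean in mDKO embryos therefore went from 8.61 ± 0.185 to 174 ± 7.54 TPM (SD, n = 2), and in controls from 33.9 ± 0.107 to 86.2 ± 6.58.

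At E2C, 3 of the 10 members were called, where 14.4% of all genes were called. Trim28 and Mphosph8 were higher, against 5.38% of all genes called higher, and Zfp809 was lower, against 8.99% called lower. Mphosph8, the chromodomain reader of HUSH, was 215 and 164 TPM in control against 535 and 375 TPM in mDKO embryos, so the lower mDKO pool was well above the higher control. It rose by 1.25 ± 0.20 on the log2 scale (limma adjusted p = 0.00536), and was not called without E2C control replicate 2 (1.06, limma adjusted p = 0.0516) or with no filter on low TPM (0.0618). In MII oocytes it was 19.4 and 21.7 TPM in control against 26.2 and 26.4 in mDKO, without overlap and without a call (0.34 ± 0.13, limma adjusted p = 0.198). At L2C it was 85.3 and 86.6 against 87.9 and 99.1 TPM, a log2 fold change of 0.12 (95% interval -0.18 to 0.41). Both genotypes thus lost the E2C peak of Mphosph8, the mDKO embryos from the higher level.

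The other core HUSH genes followed a different course and were called at L2C. Pphln1, which encodes the HUSH subunit periphilin, was 41.1 and 34.9 TPM in control against 40.7 and 47.5 in mDKO E2C embryos, and these ranges overlapped. At L2C it was 107 and 117 TPM in control against 42.8 and 37.1 in mDKO embryos. It fell by 1.47 ± 0.14 on the log2 scale (limma adjusted p = 4.18e-04), and the mDKO pools at L2C lay close to the 40.7 and 47.5 TPM of mDKO pools at E2C. Fam208a, which encodes the TASOR subunit that holds HUSH together, was 2.69 and 2.79 TPM in control against 3.82 and 3.21 in mDKO E2C embryos, a difference that was not called (0.27 ± 0.25, limma adjusted p = 0.534). Its L2C values were 17.5 and 18.6 against 11.1 and 10.2 TPM. Fam208a fell by 0.71 ± 0.18 (limma adjusted p = 0.0166), a call lost without control replicate 2 (-0.66, limma adjusted p = 0.0507) or mDKO replicate 2 (-0.66, 0.0824). In MII oocytes neither gene was called, with Pphln1 between 10.02 and 14.3 TPM and Fam208a between 3.21 and 4.18 TPM over the 4 libraries.

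The makeup of the HUSH core transcripts changed with stage and genotype. Mphosph8 made up 83.1% and 81.3% of the summed TPM of Mphosph8, Fam208a and Pphln1 in control E2C embryos and 92.3% and 88.1% in mDKO embryos. At L2C these shares were 40.6% and 38.9% in control against 61.99% and 67.7% in mDKO embryos. Pphln1 took the larger share in control L2C embryos, 51.1% and 52.8%, and the smaller one in mDKO embryos, 30.2% and 25.3%. Shares of TPM describe transcripts and carry no test.

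Of the HUSH-associated genes, neither was called at any stage in the main fit. Morc2a, an ATPase that compacts chromatin at HUSH targets, stood between 1.61 and 2.82 TPM in MII oocytes of both genotypes. It was 3.05 and 2.67 TPM in control against 5.67 and 2.50 in mDKO E2C embryos, which overlapped. Its L2C values were 14.1 and 19.3 against 11.04 and 9.68 TPM, without overlap and just outside the threshold (-0.63 ± 0.21, limma adjusted p = 0.0510). It was called with size-factor scaling (limma adjusted p = 0.0362) and with a filter of at least 5 TPM in 2 libraries (limma adjusted p = 0.0347). Without L2C control replicate 1 its log2 fold change was -0.84. Atf7ip, the SETDB1 partner, was 34.8 and 31.4 TPM in control against 49.95 and 39.1 in mDKO E2C embryos (0.41 ± 0.19, limma adjusted p = 0.191). In L2C embryos Atf7ip was 19.9 and 20.2 against 20.7 and 18.3 TPM, a log2 fold change of -0.04 (95% interval -0.43 to 0.35). Setdb1, the methyltransferase shared by TRIM28 and HUSH, was not called either, with 45.3 and 38.97 TPM in control against 71.8 and 51.3 in mDKO E2C embryos (0.52 ± 0.20, limma adjusted p = 0.124). Its log2 fold change was -0.07 at MII and 0.10 at L2C.

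Among the HP1 genes, Cbx1 was higher and Cbx3 and Cbx5 were lower in mDKO than in control L2C embryos. Cbx1 encodes HP1 beta, Cbx3 encodes HP1 gamma and Cbx5 encodes HP1 alpha. Cbx3 was 194 and 206 TPM in control against 84.6 and 80.7 in mDKO L2C embryos, and fell by 1.27 ± 0.11 on the log2 scale (limma adjusted p = 3.89e-04). Cbx5 was 30.6 and 29.97 against 12.0 and 14.1 TPM, and fell by 1.16 ± 0.17 (limma adjusted p = 0.00188). Cbx1 was 79.3 and 86.6 against 126 and 134 TPM, and rose by 0.64 ± 0.12 (limma adjusted p = 0.00575). The groups did not overlap for any of the 3 genes. At L2C, 7 of 10 members were called in all, 2 higher and 5 lower, where 42.4% of all genes were called, 19.1% higher and 23.3% lower. The median log2 fold change of the 10 was -0.67, against 0.00 over all genes tested.

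At E2C the same 3 genes had fold changes of the same signs, and none was called. Cbx1 was 135 and 127 TPM in control against 168 and 196 in mDKO embryos (0.47 ± 0.14, limma adjusted p = 0.0613). Cbx3 was 21.1 and 21.3 against 12.1 and 14.0 TPM (-0.66 ± 0.20, limma adjusted p = 0.0614). Cbx5 was 14.7 and 14.2 against 9.51 and 8.23 TPM (-0.65 ± 0.22, limma adjusted p = 0.0816). Each gene's groups were apart, but the calls depended on the fit and on single libraries: without mDKO replicate 1 Cbx1 (limma adjusted p = 0.00378) and Cbx5 (0.0262) were called, and without mDKO replicate 2 Cbx3 (0.00844), Atf7ip (0.0227) and Morc2a (0.0475). In MII oocytes Cbx1 was 55.3 and 58.7 TPM in control against 54.5 and 54.8 in mDKO, and Cbx3 and Cbx5 were at or below 2.87 TPM in all 4 libraries.

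As shares of the summed TPM of the 3 HP1 genes, Cbx1 made up between 92.4% and 96.2% in MII oocytes of both genotypes. In control embryos its share was 78.98% and 78.2% at E2C and 26.1% and 26.8% at L2C, where Cbx3 took 63.8% and 63.9%. In mDKO embryos Cbx1 made up 88.6% and 89.8% at E2C and still 56.6% and 58.6% at L2C, where Cbx3 took 38.1% and 35.3%. The most abundant HP1 transcript at L2C was therefore Cbx3 in both control pools and Cbx1 in both mDKO pools.

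**Figure D2:**
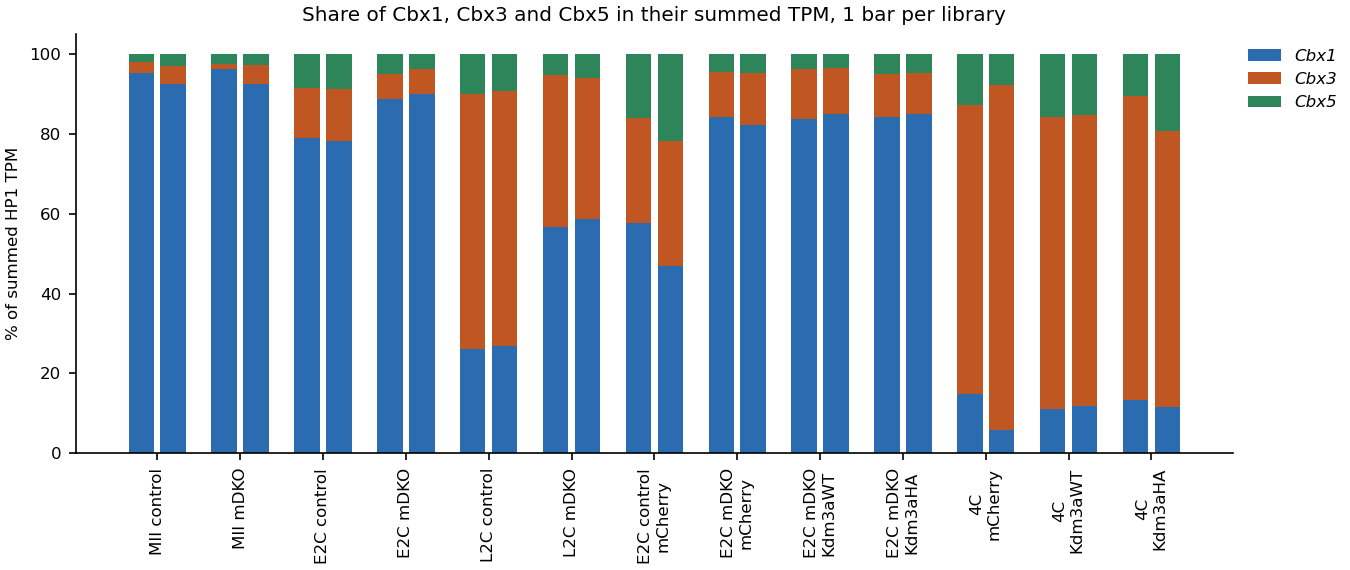
Share of Cbx1, Cbx3 and Cbx5 in their summed TPM (percent, stacked to 100), 1 bar per library. Cbx1 falls to 26.1% and 26.8% in control late 2-cell embryos and stays at 56.6% and 58.6% in mDKO late 2-cell embryos.

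Whether the genotype effect differed between stages was tested as an interaction over the 12 libraries without injection. This fit shares 1 estimate of each gene's spread over all stages, although the spread may differ with stage. Stage and library kit cannot be told apart in it. Between MII and E2C, 1 member was called, where 3.88% of all genes were called and 1.72% were higher: the Trim28 effect was larger at E2C by 2.09 ± 0.34 on the log2 scale (limma adjusted p = 0.00844). For Zfp809 this difference was -0.17 (95% interval -0.74 to 0.40). Its mDKO MII pools were at 0.533 and 0.791 TPM, where log2(TPM + 1) understates changes. The value therefore does not show that the Zfp809 effect was equal at MII and E2C. Between E2C and L2C, 5 of 10 members were called, where 25.7% of all genes were called, 13.2% higher and 12.5% lower (1889 and 1789 genes, and 1579 and 2251 after size-factor scaling). Zfp809 changed by 2.87 ± 0.26 (limma adjusted p = 6.34e-05) and Trim28 by -3.29 ± 0.34 (limma adjusted p = 1.58e-04), and in both the effect had opposite signs at the 2 stages. The effect was lower at L2C for Pphln1 (-1.68 ± 0.25, limma adjusted p = 0.00103), Mphosph8 (-1.13 ± 0.26, limma adjusted p = 0.00911) and Fam208a (-0.98 ± 0.25, limma adjusted p = 0.0162, not called without L2C mDKO replicate 2, 0.0553). Without E2C mDKO replicate 2, Mphosph8 was called between MII and E2C (1.17, limma adjusted p = 0.0223) and Morc2a between E2C and L2C (-1.42, 0.0238). For the HP1 genes no difference between the stages was called, with 0.17 (95% interval -0.21 to 0.56) for Cbx1, -0.60 (-1.58 to 0.37) for Cbx3 and -0.51 (-1.11 to 0.08) for Cbx5.

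**Figure D3:**
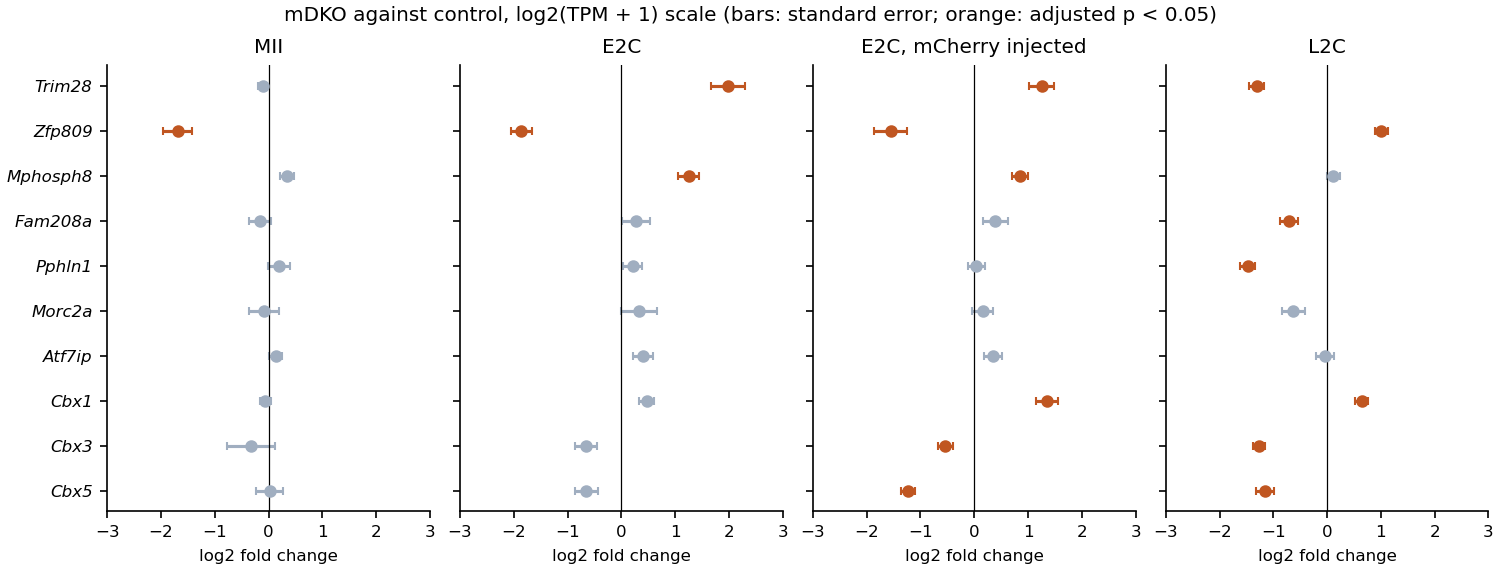
Log2 fold change of TPM + 1, mDKO against control, for the 10 members at MII, early 2-cell and late 2-cell stages and in injected early 2-cell embryos with mCherry; bars are standard errors from limma and orange points are called. Trim28 goes from 1.98 at early 2-cell to -1.31 at late 2-cell, and Zfp809 from -1.86 to 1.005.

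Marker transcripts moved with genotype as well. The summed TPM of 5 oocyte markers, H1foo, Zp3, Gdf9, Bmp15 and Mos, was between 1787 and 1830.1 in control and between 3129 and 3261 in mDKO E2C embryos. The largest rise in TPM was in H1foo (389 and 435 against 1474 and 1456). Of the 5 markers, 2 were called higher at E2C and 3 were not called. At L2C it was 477 to 560 against 1222 to 1417, with H1foo higher by 2.17 and Zp3 lower by 0.69 on the log2 scale. The summed TPM of 4 two-cell genes, Zscan4c, Zscan4d, Usp17la and Tcstv3, was 498 to 733 in control and 96.8 to 105 in mDKO E2C embryos, and 261 to 358 against 895 to 1111 at L2C. A list of 10 cumulus and granulosa cell markers summed to 111 to 116 TPM in control and 194 to 235 in mDKO E2C embryos, mostly from Serpine2, with Amh and Foxl2 at 0 in both mDKO pools. At L2C it summed to 45.8 to 49.6 against 100.3 to 104 TPM. The sum of 6 blood cell markers was 12.2 to 19.7 against 1.30 to 1.75 TPM at E2C and 299.7 to 354 against 56.8 to 259 TPM at L2C, with Hbb-bs at 0 in all of these libraries. The sum of 6 sperm and spermatid markers was 37.9 to 52.5 against 13.4 to 13.7 TPM at E2C and 17.1 to 25.2 against 15.1 to 15.6 at L2C. At E2C it came mostly from Prm2 (34.9 and 48.3 against 8.998 and 10.7 TPM), with Prm1 and Tnp2 at 0 in both genotypes. In MII oocytes the oocyte sum was 32519 to 34518 TPM in control against 38586 to 39257 in mDKO, with 0 of 5 markers called. The cumulus and granulosa list summed there to 894 to 1004 against 920 to 979 TPM, with 0 of 7 tested called, well above its level at E2C. The part of all these markers in the differences of the silencing genes was not tested.

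Embryos injected with mCherry gave the same contrast in separate libraries. Between mDKO and control E2C embryos with mCherry, 6 of 10 members were called, 3 higher and 3 lower, where 46.9% of all genes were called, 26.9% higher and 20.0% lower. The 3 members called without injection were called again with the same sign. Trim28 was 3.59 and 4.12 TPM in control and 10.6 in both mDKO pools, and rose by 1.26 ± 0.24 on the log2 scale (limma adjusted p = 0.00276). Zfp809 was 28.1 and 41.2 against 12.4 and 9.55 TPM, and fell by 1.56 ± 0.30 (limma adjusted p = 0.00339). Mphosph8 was 181 and 165 against 314 and 309 TPM, and rose by 0.85 ± 0.15 (limma adjusted p = 0.00240). For all 3 the groups were apart.

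The HP1 genes were called in these embryos too. Cbx1 was 72.9 and 44.1 TPM in control against 145 and 147 in mDKO embryos with mCherry, and rose by 1.35 ± 0.20 (limma adjusted p = 8.92e-04). Both genotypes were lower than without injection (135 and 127 TPM in control, 168 and 196 in mDKO E2C embryos), and the control more so. The difference between injected and uninjected embryos was not tested. Cbx5 was 20.5 and 20.4 against 7.84 and 8.43 TPM, and fell by 1.23 ± 0.13 (limma adjusted p = 1.58e-04). Cbx3 was 33.2 and 29.6 against 19.2 and 23.5 TPM, and fell by 0.54 ± 0.14 (limma adjusted p = 0.0127), a call lost without control replicate 1 (-0.46, limma adjusted p = 0.0728) or mDKO replicate 1 (-0.40, 0.124). The Cbx1 share of HP1 transcripts was 57.6% and 46.8% in control against 84.2% and 82.2% in mDKO embryos. Pphln1, at 35.5 and 32.1 against 34.1 and 35.2 TPM, had overlapping groups, and Fam208a (0.39 ± 0.23), Morc2a (0.16 ± 0.20) and Atf7ip (0.35 ± 0.16, limma adjusted p = 0.110) were not called, although Atf7ip was without Kdm3aWT replicate 1 (0.0459) or replicate 2 (0.0471) in the shared fit. The oocyte marker sum was 2475 to 2708 TPM in control and 3917 to 4010.4 in mDKO embryos with mCherry. The largest rise in TPM was in H1foo (409 and 468 against 1799 and 1687). Of the 5 markers, 4 were called higher, while Bmp15 was slightly lower (1817 and 1983 against 1769 and 1804). The cumulus and granulosa list summed to 77.4 to 85.0 against 343 to 350.4 TPM, and the part of these markers was not tested here either. The two-cell sum was 644 to 808 against 138 to 158 TPM. Sperm and spermatid markers summed to 33.0 to 44.0 against 5.66 to 10.3 TPM, in control mostly from Prm2 (31.4 and 43.2 against 2.82 and 6.93). Prm1 went the other way, at 0 in both control pools and at 1.56 and 1.45 TPM in mDKO pools. Blood cell markers summed to 4.11 to 7.51 against 18.5 to 31.99 TPM, the opposite order to that at E2C without injection.

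No member was called between mDKO embryos injected with Kdm3aWT or Kdm3aHA and those injected with mCherry. These comparisons share the mDKO mCherry libraries with the one above. With Kdm3aWT against mCherry, 11.8% of all genes and 0 of 10 members were called by limma, with 3182 genes at an unadjusted p under 0.05. The called genes were 104 higher and 1184 lower, and 331 and 557 after size-factor scaling. Mphosph8 was 184 and 267 TPM with Kdm3aWT, both below the 314 and 309 TPM with mCherry (-0.49, 95% interval -0.84 to -0.14, limma adjusted p = 0.0747). Trim28 was 5.33 and 8.70 against 10.6 TPM in both pools (-0.56, 95% interval -1.10 to -0.03, limma adjusted p = 0.154). The median of all genes in this comparison was -0.19, and size-factor scaling moved it by 0.194. Without Kdm3aWT replicate 2, the pool closer to mCherry for both genes, 3 members were called lower: Mphosph8 (-0.76, limma adjusted p = 0.00574), Pphln1 (-0.59, 0.0300) and Trim28 (-0.87, 0.0477). Zfp809 was 7.02 and 14.3 TPM with Kdm3aWT and 12.4 and 9.55 with mCherry, which overlapped (-0.10, 95% interval -0.80 to 0.59). Cbx1 (0.01, 95% interval -0.45 to 0.47), Cbx3 (-0.02, -0.34 to 0.30) and Cbx5 (-0.30, -0.60 to 0.01) were likewise not called.

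With Kdm3aHA against mCherry, 10.8% of all genes and 0 members were called, with 2885 genes at an unadjusted p under 0.05. Of the called genes, 169 were higher and 1018 lower, and 348 and 746 after size-factor scaling. Mphosph8 was 333 and 315 TPM with Kdm3aHA (0.05, 95% interval -0.30 to 0.41) and Trim28 7.78 and 11.3 TPM (-0.16, -0.69 to 0.38). Zfp809 was 11.0 and 9.29 TPM (-0.10, 95% interval -0.79 to 0.59). Between Kdm3aWT and Kdm3aHA, 3.29% of all genes and 0 members were called, with 2537 genes at an unadjusted p under 0.05. Kdm3aWT was the higher group for 145 called genes and the lower for 216, and for 128 and 95 after size-factor scaling. The member nearest to a call was Cbx5, at 6.23 and 6.64 TPM with Kdm3aWT against 10.6 and 9.51 with Kdm3aHA (-0.57, 95% interval -0.88 to -0.27, limma adjusted p = 0.0557). For Mphosph8 the difference was -0.55 (95% interval -0.90 to -0.19, limma adjusted p = 0.0900) and for Pphln1 -0.49 (-0.85 to -0.13, limma adjusted p = 0.117). Size-factor scaling moved the median of all genes by 0.101 in this comparison. Without Kdm3aWT replicate 2, Mphosph8 (-0.82, limma adjusted p = 0.00419), Pphln1 (-0.71, 0.0180) and Cbx5 (-0.61, 0.0395) were called. The cumulus and granulosa list summed to 248 to 254 TPM with Kdm3aWT, 235 to 249.96 with Kdm3aHA and 343 to 350.4 with mCherry. The two-cell sum was 252 to 299 TPM with Kdm3aWT, above the 151 to 179 with Kdm3aHA and the 138 to 158 with mCherry. Of its 4 genes, 2 were called higher with Kdm3aWT than with mCherry and 3 higher than with Kdm3aHA. With Kdm3aHA against mCherry, 1 of the 4 was called higher. Tcstv3 did not follow the sum, with 79.9 and 89.3 TPM (Kdm3aHA), 68.8 and 78.7 (Kdm3aWT) and 48.0 and 62.0 (mCherry). Blood cell markers summed to 0.391 to 1.21 TPM with Kdm3aWT and 0.0611 to 2.07 with Kdm3aHA, against 18.5 to 31.99 with mCherry. The oocyte sum was 3535 to 3585 TPM with Kdm3aWT and 3442 to 4344 with Kdm3aHA, and that of sperm and spermatid markers 7.76 to 14.5 and 13.5 to 20.6 TPM. The part of these markers in the members' values was not tested.

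**Figure D4:**
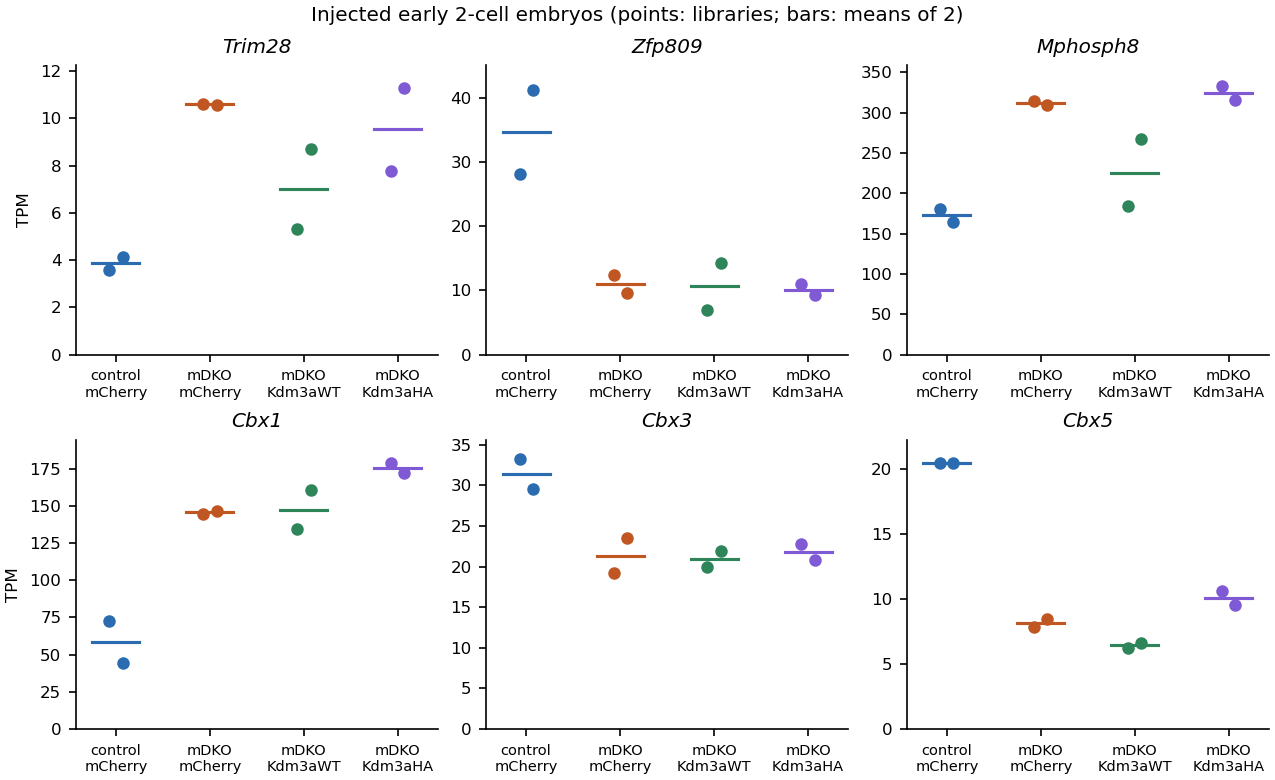
TPM of 6 members (Trim28, Zfp809, Mphosph8 and the HP1 genes) in the 8 injected early 2-cell libraries, 1 point per library, for control with mCherry and mDKO with mCherry, Kdm3aWT or Kdm3aHA; short lines mark group means. Trim28 is 3.59 and 4.12 TPM in control and 10.6 in both mDKO pools with mCherry, and the Kdm3aWT pools lie at 5.33 and 8.70.

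In wild-type 4-cell embryos, no gene was called in any of the 3 comparisons of injected groups (0% of 9669 genes, limma), with 776 genes at an unadjusted p under 0.05 for Kdm3aWT against mCherry, 264 for Kdm3aHA against mCherry and 227 for Kdm3aWT against Kdm3aHA. Kdm3a RNA was 21.8 and 6.24 TPM (mCherry), 108 and 53.4 (Kdm3aWT) and 70.5 and 161 (Kdm3aHA). These levels are far below those of mDKO E2C embryos injected with either Kdm3a construct. Cbx3 was 107 and 198 TPM (mCherry), 99.0 and 122 (Kdm3aWT) and 102 and 91.9 (Kdm3aHA). Pphln1 was 122 and 148 TPM (mCherry), 120.1 and 143 (Kdm3aWT) and 90.0 and 160.2 (Kdm3aHA). These had the 2 highest means among the members in all 3 groups, although with Kdm3aWT the ranges of Cbx3 and Zfp809 overlapped. Cbx3 made up between 69.1% and 86.5% of HP1 transcripts in the 6 libraries, and Pphln1 between 77.8% and 87.5% of HUSH core transcripts.

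Zfp809 differed widely between pools in 2 of the 3 groups and little with Kdm3aHA, at 44.9 and 10.8 TPM (mCherry), 105 and 39.98 (Kdm3aWT) and 49.4 and 52.4 (Kdm3aHA). Its log2 fold change for Kdm3aWT against mCherry was 1.51 (95% interval 0.10 to 2.91, limma adjusted p = 0.574), and without mCherry replicate 1 it was 2.49. The mCherry pool then left, replicate 2, had 7649 genes at or above 1 TPM, the fewest of any library. Trim28 was 45.9 and 17.7 TPM (mCherry), 45.2 and 39.2 (Kdm3aWT) and 46.4 and 42.2 (Kdm3aHA), so mCherry replicate 2 stood below the other 5 libraries. Mphosph8 stood at 11.8 and 17.0 TPM (mCherry), 20.7 and 28.8 (Kdm3aWT) and 17.3 and 25.5 (Kdm3aHA), and both Kdm3a groups lay above mCherry without a call (0.75, 95% interval -0.34 to 1.84, and 0.54, -0.55 to 1.63). The two-cell markers lay above mCherry too, with sums of 2.02 to 8.26 TPM (mCherry), 33.8 to 109 (Kdm3aWT) and 18.1 to 72.3 (Kdm3aHA), and 0 of the 4 called. The oocyte sum was 30.7 to 41.8, 51.8 to 58.8 and 29.5 to 48.5 TPM in that order, and the blood cell sum 50.02 to 61.6, 25.9 to 41.2 and 28.7 to 225 TPM. Cumulus and granulosa markers summed to at most 23.8 TPM and sperm and spermatid markers to at most 4.78 TPM in any library. The part of these markers was not tested. Atf7ip was 2.81 and 0.759 TPM (mCherry), 5.03 and 7.12 (Kdm3aWT) and 3.14 and 3.65 (Kdm3aHA). The median of all genes was 0.44 for Kdm3aWT and 0.35 for Kdm3aHA against mCherry, and size-factor scaling moved it by -0.434 and -0.342, so the members' positive values sit beside a shift of all genes. Cbx1 lay between 13.4 and 22.0 TPM, Cbx5 between 14.1 and 25.8, Fam208a between 4.17 and 12.4 and Morc2a between 2.34 and 7.78 TPM over the 6 libraries.

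**Figure D5:**
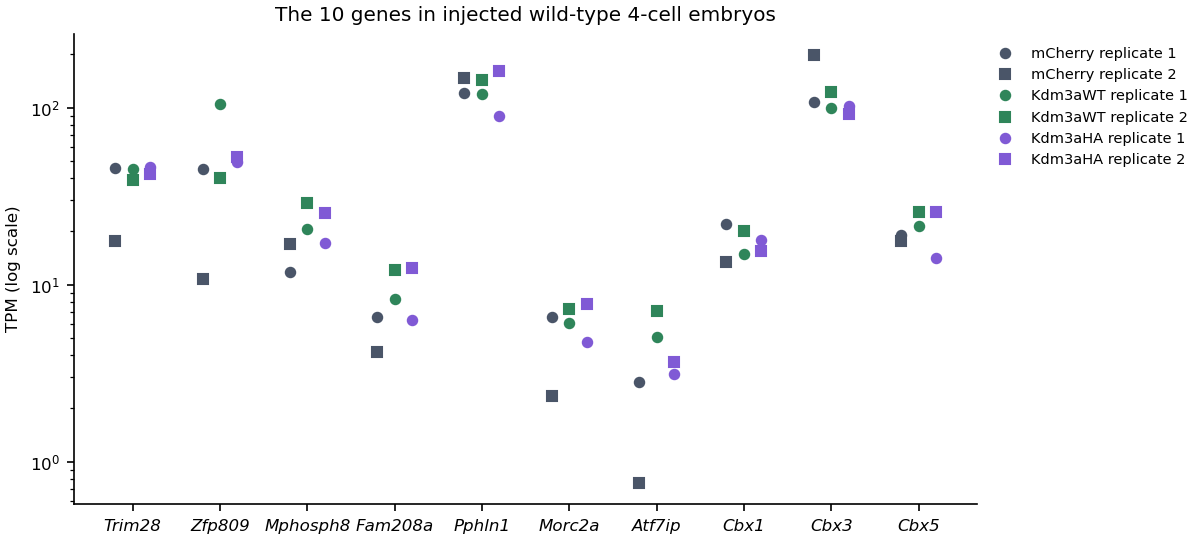
TPM of the 10 members in wild-type 4-cell embryos injected with mCherry, Kdm3aWT or Kdm3aHA (log axis), 1 point per library. No member was called, and the 2 pools of a group can lie far apart, as for Zfp809 with 44.9 and 10.8 TPM (mCherry).

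The wider pathway was read from 6 lists of partner genes. Of 6 H3K9 methyltransferase genes, 0 were called at MII and 0 at E2C among the 5 tested, and 5 of 6 at L2C, 1 higher and 4 lower. The shares of all genes called were 4.25% at MII, 14.4% at E2C and 42.4% at L2C (19.1% higher, 23.3% lower), and the counts of all 6 lists are to be read against them. The lower ones with the largest changes were Setdb2 (-1.14 ± 0.13, limma adjusted p = 8.61e-04), Ehmt2 (-0.80 ± 0.27, limma adjusted p = 0.0494) and Ehmt1 (-0.71 ± 0.20), the latter pair encoding G9a and GLP, which make H3K9 mono- and dimethylation. Suv39h2 was higher (0.60 ± 0.19). Their median log2 fold change at L2C was -0.66, against 0.00 over all genes.

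Of 16 TRIM28 partners (among them related TRIM genes, the NuRD complex and Smarcad1), 1 was called at MII, the NuRD gene Gatad2b (-0.42 ± 0.07, limma adjusted p = 0.0376), and 1 at E2C, the histone chaperone gene Rbbp7 (0.57 ± 0.12, limma adjusted p = 0.0195). At L2C 5 of 15 tested were called, a smaller share than the 42.4% of all genes, among them Mta2 (-0.95 ± 0.19), Hdac1 (-0.79 ± 0.14) and Trim33 (-0.76 ± 0.16) lower and Chd4 (0.88 ± 0.19) higher. Of 9 KRAB zinc finger repressor genes other than Zfp809, 0 of 6 tested were called at MII and 0 of 7 at E2C. At L2C 4 of 8 were called, against 42.4% of all genes. Zfp708 rose from a mean of 9.69 to 45.5 TPM (2.12 ± 0.16, limma adjusted p = 2.32e-04), Zfp57 (0.56 ± 0.13) and Zfp932 (0.56 ± 0.12) were higher, and Zfp568 (-0.78 ± 0.21) was lower. Zfp57 is known for guarding imprinted regions together with TRIM28.

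Among 11 HUSH and MORC relatives and partners, 0 were called at MII and 0 at E2C, and 7 of 9 tested at L2C, 2 higher and 5 lower, against 42.4% of all genes. The largest were Morc1 (-1.43 ± 0.26, limma adjusted p = 0.00468), Atf7ip2 (-1.30 ± 0.19, limma adjusted p = 0.00185) and Skiv2l2 (-1.21 ± 0.17), against Fam208b (0.74 ± 0.16) and 2810474O19Rik (0.49 ± 0.13) higher. Among 13 HP1 partners and heterochromatin proteins, the chromatin remodeller gene Atrx was the one called at E2C (0.87 ± 0.16, limma adjusted p = 0.0109), and 0 were called at MII. At L2C 5 of 13 were called, close to the 42.4% of all genes: Suv420h1 (-1.06 ± 0.15), Incenp (-1.02 ± 0.16) and Lbr (-0.87 ± 0.13) were lower, and Lrif1 (0.94 ± 0.16) and Atrx (0.44 ± 0.13) higher. Of the Polycomb chromobox genes, relatives of HP1 that bind methylated H3K27, Cbx7 was lower at E2C (-0.96 ± 0.26, limma adjusted p = 0.0400) and at L2C (-1.33 ± 0.25, limma adjusted p = 0.00567), among 3 tested at each stage.

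In the injected contrast of mDKO against control with mCherry, where 46.9% of all genes were called, 2 of 5 H3K9 methyltransferase genes were called (Suv39h1 -0.51 ± 0.14, Suv39h2 0.58 ± 0.19), and Setdb1 was not (-0.30 ± 0.17, limma adjusted p = 0.171). Of 14 TRIM28 partners tested, 5 were called higher and 4 lower, against 26.9% and 20.0% of all genes. The largest were Mbd3 (1.70 ± 0.25), Hdac2 (1.68 ± 0.24), Rbbp7 (0.80 ± 0.07), Hdac1 (-0.89 ± 0.17), Gatad2b (-0.79 ± 0.15) and Gatad2a (-0.61 ± 0.11). Zfp57 rose from a mean of 1111 to 2035 TPM (0.88 ± 0.10), and Zfp819 (-0.94 ± 0.31) and Zfp932 (-0.54 ± 0.09) were lower. Safb (0.89 ± 0.15) was the 1 HUSH relative called of 9 tested, against 46.9% of all genes. Among HP1 partners Chaf1a (1.02 ± 0.15), Suv420h1 (0.70 ± 0.26) and Lbr (0.62 ± 0.15) were higher, and Chaf1b (-0.64 ± 0.17) and Atrx (-0.50 ± 0.17) lower, so Atrx was called with opposite signs in the E2C contrasts with and without injection. With Kdm3aWT against mCherry in mDKO embryos, Zfp57 (-0.55 ± 0.10), Skiv2l2 (-0.75 ± 0.17), Morc1 (-0.74 ± 0.18) and Chaf1a (-0.70 ± 0.15) were called lower. These were 1 of 7 KRAB zinc finger genes tested, 2 of 9 HUSH relatives and 1 of 11 HP1 partners, where 11.8% of all genes were called. The median of all genes there was -0.19, and the lists were not fitted with size-factor scaling. With Kdm3aHA, Mbd3 (-1.30 ± 0.25), Suv39h2 (-0.90 ± 0.19) and Chaf1a (-0.78 ± 0.15) were lower and Gatad2a (0.47 ± 0.11) higher. These were 1 of 5 H3K9 methyltransferase genes tested, 2 of 14 TRIM28 partners and 1 of 11 HP1 partners, where 10.8% of all genes were called.

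Over the means of all 13 groups, the members did not follow 1 common course. The closest pair was Fam208a and Morc2a (Pearson r = 0.960 on log2(TPM + 1)), followed among the HP1 genes by Cbx3 and Cbx5 (r = 0.926). The pair furthest apart was Pphln1 and Atf7ip (r = -0.824). Trim28 and Mphosph8 had r = -0.683, and Trim28 and Zfp809 r = -0.425. Among 7631 genes with a mean of at least 5 TPM, those most like Trim28 were Pgrmc2 (r = 0.987), Chmp4b (r = 0.986) and Edem3 (r = 0.983). Those most like Zfp809 were Zfp281 (r = 0.954), Slc10a3 (r = 0.947) and Zfp54 (r = 0.944). These correlations describe 13 group means that share stages, tables and library kits, and have no test. Pgrmc2 was chosen by its r to Trim28 over these same means, so that choice favours a like order. Pgrmc2 was 2.96 and 3.67 TPM in control against 9.94 and 4.39 in mDKO E2C embryos, and 16.8 and 17.3 against 9.89 and 10.3 TPM at L2C, the same order of groups as Trim28 at both stages. Zfp281, chosen likewise for Zfp809, had the opposite order to Zfp809 at L2C (49.7 and 49.6 TPM in control, 38.7 and 38.5 in mDKO embryos). Zfp54 had the same order as Zfp809 there (67.4 and 43.7 against 109 and 112 TPM), and the groups of Slc10a3 overlapped.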

How the data were processed

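PolyA RNA-seq of 26 pools was used. The deposited values are TPM, computed by the authors on mm10. RSEM 1.3.1, STAR 2.7.10b, SAMtools 1.9 and Bowtie2 2.3.4.1 appear in the submitters' processing notes, and which tool did what, the annotation and the strand setting are not given there. TPM keeps no depth, so the depth of each library is unknown. All columns matched 1 sample each by name. Groups and replicate numbers come from the labels.

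Across all genes, limma 3.58.1 (R 4.3.3) was fitted on log2(TPM + 1), with two-sided moderated tests (eBayes, variance trend on the mean) and Benjamini-Hochberg adjustment. A gene was tested where 2 or more libraries in the fit reached 1 TPM. Comparisons of mDKO with control used the 4 libraries of a stage. Comparisons between stages used the 12 libraries without injection, and injected comparisons the 8 E2C or 6 4C libraries. The fit was run on simulated data with independent normal noise, which does not cover pools that share technical spread. With 2 libraries per group the smallest exact permutation p is 0.333, so no permutation test was used. Members and lists were chosen with earlier results of these data known. Named were all members, Setdb1, up to 3 called genes per list, direction and comparison, and the 3 genes most like Trim28 and Zfp809. A called gene of the TRIM28 partner list is counted but not reported here by name. Alternatives were another pseudocount, filters, scaling, variance trend, library sets, a replicate block and leaving out each library.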

Additional observations from a re-analysis of the deposited data

Results flagged for a closer look

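For 5 members the difference between mDKO and control embryos itself differed between stages by an interaction test (limma, 12 libraries without injection). Stage and library kit cannot be told apart in that test, which shares 1 estimate of the spread over the stages. The Trim28 effect was larger at E2C than at MII by 2.09 on the log2 scale, and the change of its effect from E2C to L2C was -3.29, from a rise to a fall. The Zfp809 effect changed by 2.87 from E2C to L2C, from a fall to a rise. Between the same stages the effect changed by -1.13 for Mphosph8, which was higher in mDKO embryos at E2C and not called at L2C. It changed by -0.98 for Fam208a and by -1.68 for Pphln1, which were both called lower at L2C and not called at E2C. The change for Fam208a was not called without L2C mDKO replicate 2. Groups of 2 libraries are too small for an outlier test.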

How the results depend on the processing

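With 2 pools per group, values given as TPM and no known depth, the number of libraries limits every call. Of 42 pairs of a member and a comparison that were called, 34 were called under all alternatives tried, and of 2023 alternative values 28 lost a call, 28 gained one and 0 changed sign where either value was called.

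Counts of called members moved as follows. At MII the count was 1 and became 0 with no filter on low TPM, 0 with a TPM of at least 5 in 2 libraries (Zfp809 was then not tested), 0 with no mean-dependent trend and 0 without any 1 library. At E2C it was 3, and became 1 with no filter, 5 with all 12 libraries in 1 fit, and between 1 and 6 without 1 library. The replicate numbers only name the pools, with correlations of same-numbered deviations of 0.359 at MII, -0.0187 at E2C and 0.0502 at L2C, so they were not taken as pairs. With the replicate block 6 members were called at E2C in place of 3 (Cbx1, Cbx3 and Cbx5 in addition), and Fam208a was not called from MII to E2C in controls (limma adjusted p = 0.0548). The block changed no other member's call. The E2C against MII difference in effect went from 1 to 2 with size-factor scaling (Mphosph8, 0.86), and between 1 and 2 without 1 library. Kdm3aHA against mCherry went from 0 to 1 with the 4 libraries compared alone (Cbx1). Kdm3aWT against Kdm3aHA went from 0 to 1 with a TPM of at least 5 (Cbx5). Leaving out 1 library gave 0 to 3 for Kdm3aWT against mCherry and for Kdm3aWT against Kdm3aHA, and 0 to 1 for Kdm3aWT against mCherry at 4C. The other counts stayed within 1.5 times.

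Over all genes, calls at MII went from 458 to between 42 and 300 without 1 library and to between 145 and 2143 otherwise. At E2C they went from 1600 to between 282 and 3214 without 1 library and to between 409 and 2560 otherwise. Kdm3aWT against mCherry had 1288 calls (91 to 1551 without 1 library), Kdm3aHA against mCherry 1187 (216 to 1469) and Kdm3aWT against Kdm3aHA 361 (8 to 1493, and 1 to 604 otherwise). The difference in effect between MII and E2C had 555 (216 to 839, and 351 to 589 otherwise), and the injected mDKO contrast 5141 (3117 to 5493). At 4C, 0 calls became up to 491, 21 and 23 without 1 library and up to 26, 8 and 14 otherwise. At L2C 5342 calls stayed between 3872 and 5683. The causes were not tested.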
